A study of Mus musculus with 2 samples.

Results

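Imprinted genes are transcribed mainly from the copy inherited from 1 parent. The 9 imprinted genes H19, Meg3, Grb10, Dlk1, Peg3, Mest, Plagl1, Ndn and Sgce were followed in embryonic mouse ureters, where they are 9 of the 21981 genes that could be tested. They were taken by gene name from the array's non-control probes, without regard to their values, and are covered by 19 probes. All 19 probes were well above background in all 4 channels, so no gene was lost to the filter on dim probes.

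The parental bias of such genes is set by DNA methylation placed in the germ line, and as a class they are known as regulators of fetal and placental growth. Many are abundant in embryonic mesenchyme and are shut down after birth. In the mouse a group of them has been described as an embryonic imprinted gene network whose members are often expressed together, with the zinc finger factor Plagl1 as one of its regulators. H19, Meg3 and Grb10 are expressed mainly from the maternal copy, and Dlk1, Peg3, Mest, Plagl1, Ndn and Sgce mainly from the paternal copy. The arrays do not separate the parental copies, and values here are the sum of both.

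Ureters were dissected from NMRI embryos at stage E14.5. Bmp4cKO embryos were Tbx18(cre/+);Bmp4(fl/fl), so that Cre under the control of the Tbx18 locus, which is active in ureteric mesenchyme, deletes Bmp4, the gene of a secreted growth factor. Control embryos were Tbx18(+/+);Bmp4(fl/?), had no cre and carried at least 1 floxed Bmp4 allele. Each of 2 two-colour arrays held 1 Bmp4cKO RNA and 1 control RNA. On replicate 1, labelled female, the Bmp4cKO RNA carried the green dye AlexaFluor555 and the control RNA the red dye AlexaFluor647, and on replicate 2, labelled male, the dyes were exchanged. Whether an RNA came from 1 embryo or from pooled embryos is not given here, so that p-values measure only the spread between these arrays.

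Before the results, 2 checks of the labels have to be stated. The Bmp4 probe had normalised intensities of 75598 and 61938 in the RNAs labelled Bmp4cKO on replicates 1 and 2, against 9191 and 4719 in the RNAs labelled control. The targeted gene was therefore higher in the RNA labelled Bmp4cKO, with log2 ratios of 3.04 and 3.71, and Tbx18, of which the labels give Bmp4cKO embryos 1 intact allele, had log2 ratios of 0.85 and 1.08. Where the Bmp4 probe lies relative to the floxed part was not determined here. The authors' deposited table gives the opposite sign, with a signed fold of -8.16 and -13.9 for Bmp4. Every direction below is that of the channel labelled Bmp4cKO over the one labelled control, and it turns if the labels are exchanged. What does not depend on the labels is whether a gene has the sign of the Bmp4 probe.

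The second check used sex-linked genes. On replicate 1 neither channel had a signal well above background for the Y-linked genes Ddx3y and Eif2s3y. On replicate 2 the processed signals of Ddx3y were 6.25 in the Bmp4cKO channel and 2720 in the control channel, and those of the brighter Xist probe were 2120 and 85.2. The 2 RNAs of replicate 2, both labelled male, thus differed in sex-linked genes, and on that array a difference between genotypes and one between sexes cannot be told apart. The values on replicate 1 given for each gene are the values without that array.

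Detection of markers did not single out a tissue, since most markers of each cell type listed were detected. All 8 urothelial and all 7 ureteric mesenchyme and smooth muscle markers were well above background in all 4 channels. Their summed intensities were higher in the channels labelled Bmp4cKO, the sign of the Bmp4 probe. They were 119700 and 102900 for urothelium against 53610 and 54190 in control. For mesenchyme and smooth muscle they were 90580 and 114900 against 54360 and 43470 in control. All 7 nephron markers and all 7 neuron and Schwann cell markers were also detected in all channels. By gene, limma called 5 of the 8 urothelial markers higher, with a median log2 ratio of 2.26, and 4 of the 7 mesenchyme and smooth muscle markers higher, with a median of 1.29. Nephron markers summed to 23170 and 23790 in Bmp4cKO and to 26040 and 31620 in control, and the sums hide a wider spread: 3 of the 7 were called lower, and the means ran between -2.15 and 0.52 with a median of -0.78. Neuron and Schwann cell markers summed to 11020 and 9131 in Bmp4cKO and to 15970 and 15810 in control, with 3 of the 7 called lower and a median log2 ratio of -0.89. The nephron and neuronal markers that were called had the sign opposite to the Bmp4 probe. All directions of the markers turn if the labels are exchanged. Cartilage and fibroblast markers summed to 189800 and 182400 in Bmp4cKO and to 152000 and 109600 in control. Endothelial markers summed to 61600 and 73180 in Bmp4cKO and to 49570 and 49320 in control, and all 5 were higher on both arrays, though none was called. Of the other lists, 3 of 4 fat cell, 4 of 6 skeletal muscle and 4 of 6 steroidogenic markers were well above background in all 4 channels. Adipoq of the fat cell, Myf5 of the skeletal muscle and Amh of the steroidogenic markers were not well above background. The part of these marker differences in the values below was not tested, and in such bulk RNA fewer cells of a type and less RNA per cell cannot be told apart.

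Of the 9 imprinted genes 0 passed limma's test at an adjusted p under 0.05, beside 1.91% of all genes tested, of which 0.887% were higher and 1.02% lower in Bmp4cKO. At an unadjusted p under 0.05 there was 1 gene, Sgce, which was higher, beside 7.15% of all genes that were higher and 7.37% that were lower at that level. At the brightest probe the means of the genes did not share a sign. Their log2 ratios averaged over the arrays ran between -0.29 for Meg3 and 0.40 for H19, with a median of -0.05, beside a median of -0.01 over all genes. These means lay within the bulk of the array, where the 5th and 95th percentiles of all genes were -0.43 and 0.43.

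The arrays differed in sign for most of the genes. On replicate 1, 8 of the 9 genes were lower in Bmp4cKO, beside 49.5% of all genes, and on replicate 2, 7 of the 9 were higher, beside 47.1% of all genes. As a result 6 genes had opposite signs on the 2 arrays. Only Sgce was higher on both, beside 28.2% of all genes, and Meg3 and Ndn were lower on both, beside 30.6% of all genes. Sgce was therefore the 1 gene of the 9 with the sign of the Bmp4 probe on both arrays, and Meg3 and Ndn had the other sign on both.

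**Figure D1:**
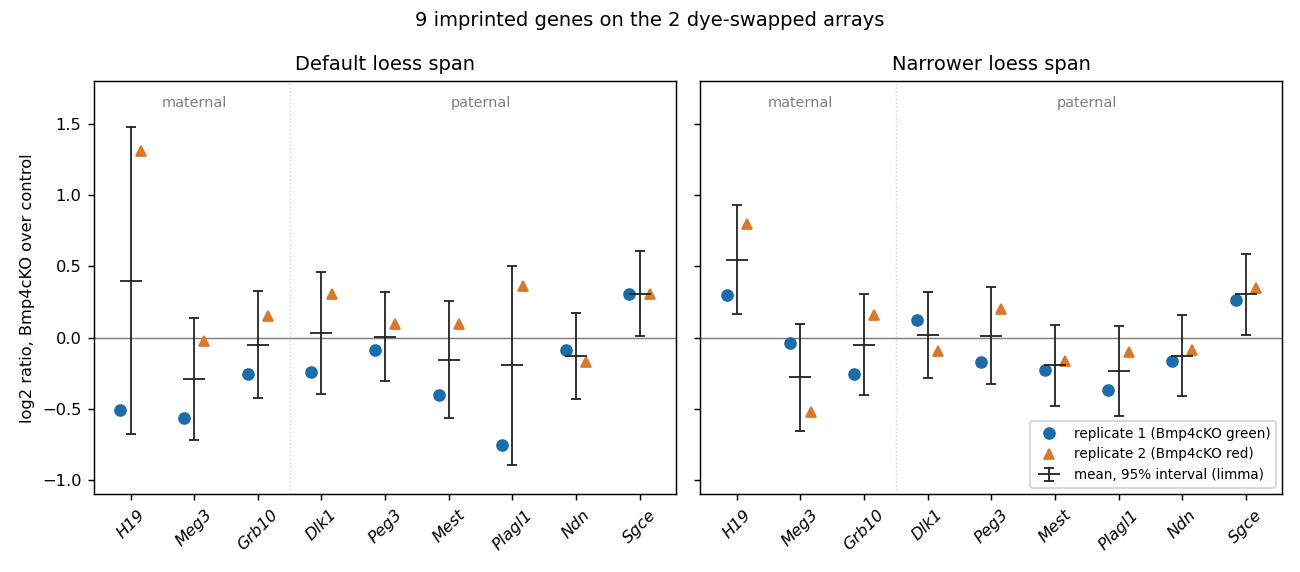
Log2 ratio of Bmp4cKO over control for each of the 9 genes on replicate 1 (circles) and replicate 2 (triangles), with the mean and its 95% interval from limma (bars), at the default loess span (left panel) and a narrower one (right panel). At the default span most circles lie below 0 and most triangles above it. At the narrower span the points of H19, Mest and Plagl1 lie on 1 side of 0.

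H19 and Meg3 are long non-coding RNAs. Probes of both are shown because the 2 H19 probes had means of opposite sign, while the Meg3 probes all had a mean below 0. Positions are those of the array files in mouse build mm9, and each probe is 60 bases long. The H19 probes lie on chromosome 7, minus strand, at chr7:149761492-149761551 for the brighter and chr7:149762417-149762476 for the dimmer, with starts 925 bases apart.
H19 brighter probe: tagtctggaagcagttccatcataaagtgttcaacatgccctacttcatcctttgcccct
H19 dimmer probe: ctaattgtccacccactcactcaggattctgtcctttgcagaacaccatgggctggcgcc
The brightest and the dimmest Meg3 probe lie on chromosome 12, plus strand, at chr12:110809678-110809737 and chr12:110799558-110799617. Exon positions on this build were not looked up, since no annotation of it was used here.
Meg3 brightest probe: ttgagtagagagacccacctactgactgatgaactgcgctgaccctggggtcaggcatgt
Meg3 dimmest probe: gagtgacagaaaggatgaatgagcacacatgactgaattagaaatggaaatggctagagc

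Of the maternally expressed genes, H19, a growth-restraining RNA that shares enhancers with Igf2, had the widest spread. Its brighter probe had normalised intensities of 151001 and 229977 in Bmp4cKO on replicates 1 and 2, against 214575 and 93026 in control. The groups overlapped, and the 2 arrays pointed in opposite directions, with log2 ratios of -0.51 and 1.31. The mean of 0.40 ± 1.28 (SD, n = 2) had an adjusted p of 0.79 in limma, and its 95% interval ran from 0.624-fold to 2.79-fold. The dimmer H19 probe, the second of the sequences above, had log2 ratios of 0.08 and -0.17, opposite in sign to the brighter probe on each array.

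Meg3, the maternally expressed RNA of the Dlk1 domain, had normalised intensities of 110603 and 142761 in Bmp4cKO and 163349 and 144998 in control for its brightest probe. Both control values lay above both Bmp4cKO values, though on replicate 2 by little. How many of all genes separate in this way was not computed. Here, and for Sgce and Ndn below, it is a description only. The log2 ratios were -0.56 and -0.02, and the mean of -0.29 ± 0.38 (SD, n = 2) had an adjusted p of 0.54 in limma. All 3 Meg3 probes had a mean below 0, and that of the dimmest was -0.07, from log2 ratios of -0.30 and 0.17.

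Grb10, an adaptor protein that dampens signalling from the insulin and insulin-like growth factor receptors, had a single probe. Its normalised intensities were 2715 and 2761 in Bmp4cKO and 3239 and 2482 in control, so that the control values lay on either side of the Bmp4cKO values. The mean log2 ratio was -0.05 ± 0.29 (SD, n = 2; limma adjusted p = 0.94).

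**Figure D2:**
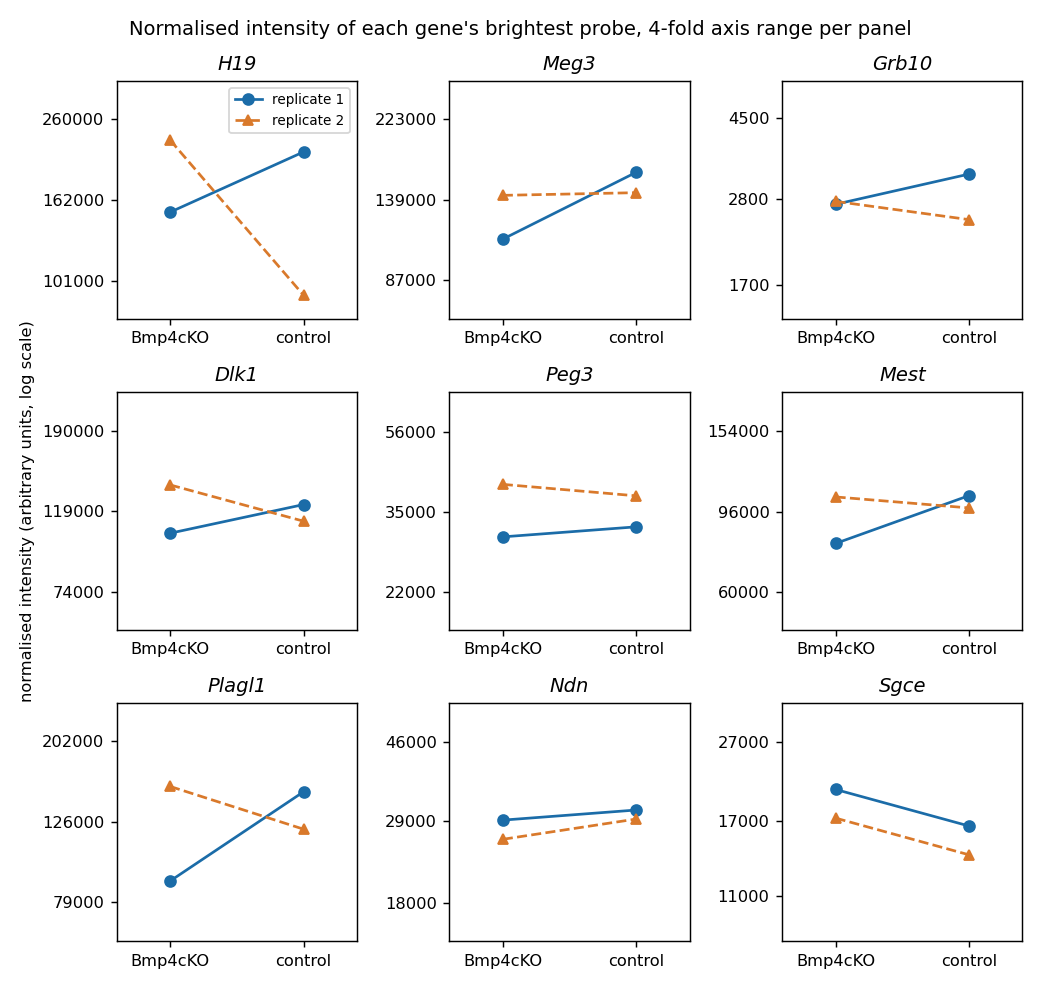
Normalised intensity (log scale, arbitrary units) of the brightest probe of each gene in the Bmp4cKO and control channels of replicate 1 (solid line, circles) and replicate 2 (dashed line, triangles), with the same 4-fold axis range in each panel. The lines slope in opposite directions for H19, Grb10, Dlk1, Peg3, Mest and Plagl1, both slope down from Bmp4cKO for Sgce, and both slope up for Meg3 and Ndn.

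Of the paternally expressed genes, Sgce had the closest arrays. It encodes epsilon-sarcoglycan, a membrane protein of the dystrophin-associated complex. Its normalised intensities were 20456 and 17306 in Bmp4cKO and 16526 and 13969 in control, and both Bmp4cKO values lay above both control values. The log2 ratios were 0.31 on each array, a 1.24-fold mean with a 95% interval from 1.01-fold to 1.52-fold. The limma p was 0.044 before adjustment and 0.32 after it, so the difference did not pass the test.

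Ndn encodes necdin, a protein of the MAGE family that restrains growth in neurons. It had normalised intensities of 29144 and 26061 in Bmp4cKO and 30916 and 29333 in control, and both control values lay above both Bmp4cKO values. The shift was small on each array. The log2 ratios were -0.09 and -0.17, and the mean of -0.13 ± 0.06 (SD, n = 2) had an adjusted p of 0.75 in limma.

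Peg3, a zinc finger protein, had the mean nearest to 0. Its brighter probe had normalised intensities of 30299 and 41156 in Bmp4cKO and 32125 and 38492 in control. The mean log2 ratio was 0.01 ± 0.13 (SD, n = 2; limma adjusted p = 0.99), with a 95% interval from 0.808-fold to 1.25-fold. That interval holds for this probe only, and a difference within it could not be resolved with 2 arrays. The dimmer Peg3 probe had log2 ratios of -0.38 and 0.06 and a mean of -0.16, so the sign of Peg3 depends on the probe.

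Dlk1 encodes a transmembrane protein related to Notch ligands that holds back fat cell differentiation. Its brighter probe had normalised intensities of 104384 and 138380 in Bmp4cKO and 123377 and 111981 in control, with log2 ratios of -0.24 and 0.31. The mean was 0.03 ± 0.39 (SD, n = 2; limma adjusted p = 0.98). Its second probe had log2 ratios of -0.07 and -0.10, and both of its signs were negative.

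Mest encodes a protein of the alpha/beta hydrolase fold and is a marker of embryonic mesenchyme. Its brightest probe had normalised intensities of 79752 and 104608 in Bmp4cKO and 105432 and 98109 in control, and the groups overlapped. The mean log2 ratio was -0.16 ± 0.35 (SD, n = 2; limma adjusted p = 0.78). All 3 probes had means below 0, and the lowest of them, -0.46, was negative on both arrays at -0.60 and -0.32. On 2 of the Mest spots the scanner software had set an outlier mark, and those spots were left out.

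Plagl1, the zinc finger transcription factor named above as a regulator of the network, had normalised intensities of 89434 and 155318 in Bmp4cKO and 150529 and 121036 in control. Its log2 ratios were -0.75 and 0.36, and the mean of -0.20 ± 0.79 (SD, n = 2) had an adjusted p of 0.86 in limma. The 4 Plagl1 probes fell into a bright and a dim pair. All 4 were lower in Bmp4cKO on replicate 1, between -1.06 and -0.43. On replicate 2 the bright pair had log2 ratios of 0.36 and 0.34 and the dim pair -0.20 and -0.11. The mean was below 0 for each of the 4 probes, between -0.43 and -0.20.

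**Figure D3:**
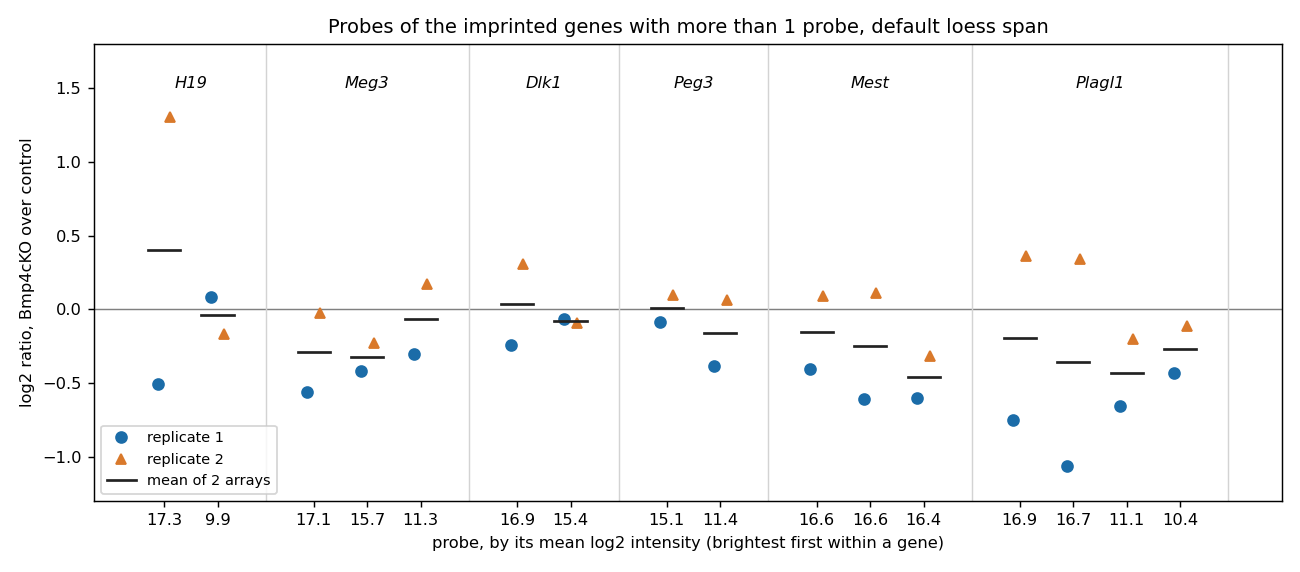
Log2 ratio of Bmp4cKO over control on replicate 1 (circles) and replicate 2 (triangles) and their mean (bars) for each probe of the 6 genes with more than 1 probe, ordered within a gene from the brightest to the dimmest and labelled by mean log2 intensity. The triangle lies above the circle for most bright probes and the gap narrows for the dim probes of H19 and Plagl1.

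Red over green varied with spot intensity. Red over green, without regard to genotype, had a median log2 of 0.15 on replicate 1 and 0.14 on replicate 2 over the 873 genes with a mean log2 intensity between 16 and 17. Over the 280 genes above 17 it was 0.65 and 0.58, and 94.6% of them were higher in red on both arrays. Between 14 and 16, where Peg3, Ndn and Sgce lie, the medians were -0.08 and -0.09, and 9.23% of 2892 genes were higher in red on both arrays. Below an intensity of 14, where Grb10 lies, the medians lay between -0.02 and 0.01. H19 and Meg3 lie in the brightest class and Dlk1, Mest and Plagl1 in the class below it. The dyes were exchanged between the arrays. An excess of red on both therefore lowers the Bmp4cKO ratio on replicate 1 and raises it on replicate 2. In the mean of the pair it cancels only as far as it is equal on both arrays. The 6 genes with opposite signs were, by the same arithmetic, higher in red on both arrays, and of these Peg3 and Grb10 lie in classes without an excess of red.

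**Figure D4:**
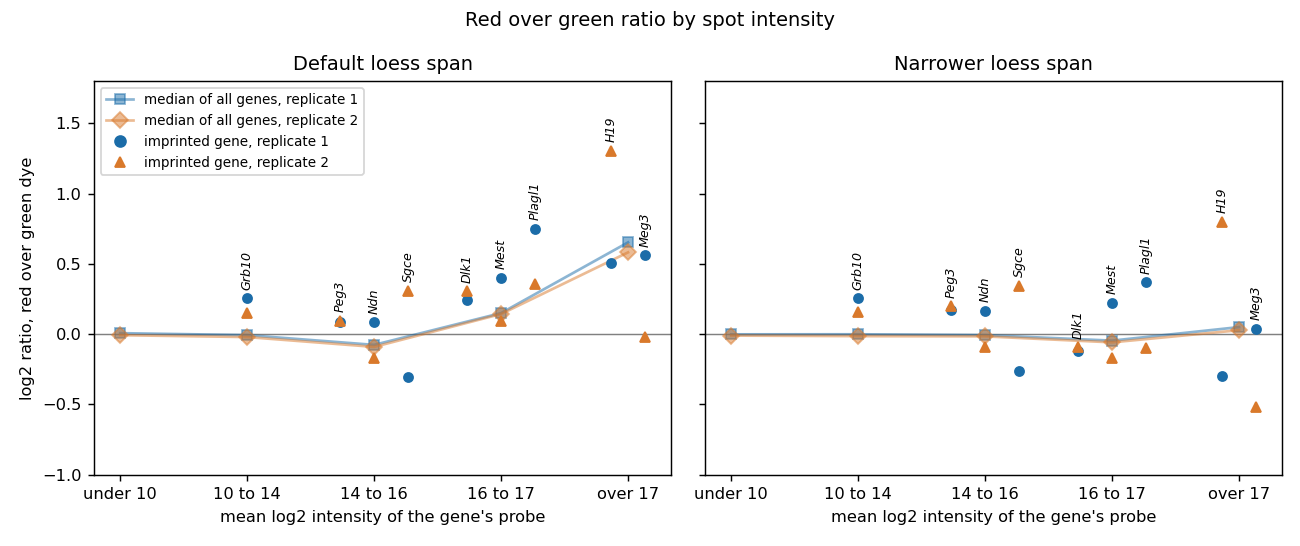
Log2 ratio of red over green by class of mean log2 intensity, with the median of all genes in a class on each array (squares and diamonds joined by lines) and the single values of the 9 genes on replicate 1 (circles) and replicate 2 (triangles), at the default loess span (left panel) and a narrower one (right panel). In the left panel both medians climb to 0.65 and 0.58 in the brightest class, and in the right panel all medians lie between -0.06 and 0.05.

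The ratios were therefore also computed with a narrower loess span of 0.05 in place of 0.3, a setting chosen after these values had been seen. In the brightest class the median red over green then was 0.05 on replicate 1 and 0.03 on replicate 2. The number of genes with opposite signs on the 2 arrays was 3 of 9 (Dlk1, Peg3 and Grb10) in place of 6. H19 and Sgce were higher in Bmp4cKO on both arrays, beside 29.2% of all genes, and Meg3, Mest, Plagl1 and Ndn were lower on both, beside 30.9% of all genes. Of the 9 genes 0 passed limma's test, beside 3.61% of all genes, and 2, H19 and Sgce, were higher at an unadjusted p under 0.05, beside 7.92% of all genes that were higher at that level.

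H19 moved the most under this setting. Its brighter probe had log2 ratios of 0.30 and 0.80, with a mean of 0.55 ± 0.35 (SD, n = 2) or 1.46-fold, and its limma p was 0.014 before adjustment and 0.16 after it. The dimmer H19 probe stayed at a mean of -0.04. Plagl1 had log2 ratios of -0.37 and -0.10 and Mest of -0.22 and -0.17, with adjusted p-values of 0.47 and 0.50 in limma. Sgce was hardly affected, at 0.26 and 0.34. Under both spans, the 9 genes held values on both sides of 0 and did not move as 1 block.

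By parental copy, the 3 maternally expressed genes had means of 0.40, -0.29 and -0.05, with a median of -0.05. The 6 paternally expressed genes had a median of -0.06, with 5 of 6 lower on replicate 1 and 5 of 6 higher on replicate 2. Neither group had a gene that passed the test.

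The neighbours of these genes were read from a wider list of 78 genes, of which 69 could be measured. It holds genes of the imprinted clusters around the 9 and imprinted genes elsewhere, and leaves out the 9. The values of single clusters given below include those of the 9 that lie there. Whether each listed gene is imprinted in the ureter was not tested. Of the 69, 3 passed limma's test, beside 1.91% of all genes, and all 3 were higher in Bmp4cKO, beside 0.887% of all genes. One of these, Calcr, passed the filter on dim probes only through the group in which it is high. On both arrays 26 of the 69 were higher and 24 lower, beside 28.2% and 30.6% of all genes. At the narrower span described above, 5 passed, beside 3.61% of all genes. All 5, Calcr among them, were higher, beside 371 of the 21981 genes tested. The median log2 ratio of the 69 genes at the default span was 0.0031. Of the 9 unmeasured genes, Rtl1, Zim2, Peg10, Pon1 and Htr2a were not well above background, and no probe was matched to Rian, Hymai, Snurf and Nespas.

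The genes around Sgce were mostly higher in the RNA labelled Bmp4cKO. Calcr, the calcitonin receptor, had normalised intensities of 290 and 335 in Bmp4cKO and 134 and 131 in control, and it was at least 2.35-fold higher (log2 1.23 ± 0.17, SD, n = 2; limma adjusted p = 0.026). Its probe was well above background in both Bmp4cKO channels and in neither control channel, so the fold is a lower bound. It could pass the filter only through the group in which it is high, and its call is given as a description and supports nothing. Pon3, a lactonase of the paraoxonase family, had 4510 and 4536 in Bmp4cKO and 2836 and 2208 in control, a log2 ratio of 0.85 with an adjusted p of 0.064 in limma. At the narrower span the adjusted p of Pon3 was 0.037. This cluster had 8 measured genes, Sgce included. Of these, 7 were higher on both arrays and 1 was lower on both, beside 28.2% and 30.6% of all genes. The 6 with an unadjusted p under 0.05 were all higher, beside 7.15% of all genes, and the median log2 ratio was 0.46, which reads -0.46 if the labels are exchanged. Over the 7 genes well above background in all 4 channels, which leaves out Calcr, 6 were higher on both arrays, 5 had an unadjusted p under 0.05 and the median was 0.40. Sgce lay below both medians.

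In the Grb10 cluster, Ddc, the decarboxylase that makes dopamine and serotonin, had normalised intensities of 4430 and 4030 in Bmp4cKO and 2067 and 2186 in control. It was 1.99-fold higher in the channel labelled Bmp4cKO, the sign of the Bmp4 probe (log2 0.99 ± 0.15, SD, n = 2, limma adjusted p = 0.038). Its neighbour Cobl had a log2 ratio of 0.15. Outside the clusters, Rasgrf1, an exchange factor that activates Ras, had 1190 and 1446 in Bmp4cKO and 595 and 594 in control. It was 2.21-fold higher in the channel labelled Bmp4cKO, again the sign of the Bmp4 probe (log2 1.14 ± 0.20, SD, n = 2, limma adjusted p = 0.034). Kcnk9, a potassium channel, had a log2 ratio of 0.91 with an adjusted p of 0.070 in limma and of 0.038 at the narrower span, and its 2 passing probes had means of 0.91 and 0.10.

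The H19 cluster had 0 of 18 genes past the threshold, beside 1.91% of all genes. It had 4 with an unadjusted p under 0.05, all of them higher, beside 7.15% of all genes, with a median log2 ratio of 0.02. Phlda2, which limits placental growth, had normalised intensities of 1025 and 1455 in Bmp4cKO and 647 and 550 in control, and its log2 ratio of 1.03 had an adjusted p of 0.091 in limma. The transporter gene Slc22a18 had a log2 ratio of 0.48. Another pair of genes was picked out after its values had been seen. Igf2, the growth factor gene next to H19, had log2 ratios of 0.22 and 0.21, and the cell cycle inhibitor Cdkn1c, whose probe is as bright as those of Dlk1 and Plagl1, had -0.49 and 0.40.

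In the other clusters 0 genes passed limma's test, and of their measured genes Snrpn alone had an unadjusted p under 0.05. In the Dlk1-Meg3 cluster the median of 5 measured genes, with Dlk1 and Meg3 included, was -0.22, and Begain had a mean of -0.30. In the Peg3 cluster the median of 5 genes, Peg3 included, was 0.02, with the zinc finger genes Zim1 at 0.28 and Zfp264 at 0.28. Around Mest, Copg2 was at 0.14 and Klf14 at -0.22, and around Plagl1 the only other measured gene had opposite signs on the arrays. The Ndn cluster had a median of -0.11 over 7 genes, Ndn included, with Snrpn at -0.31 and Mkrn3 at -0.16.

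**Figure D5:**
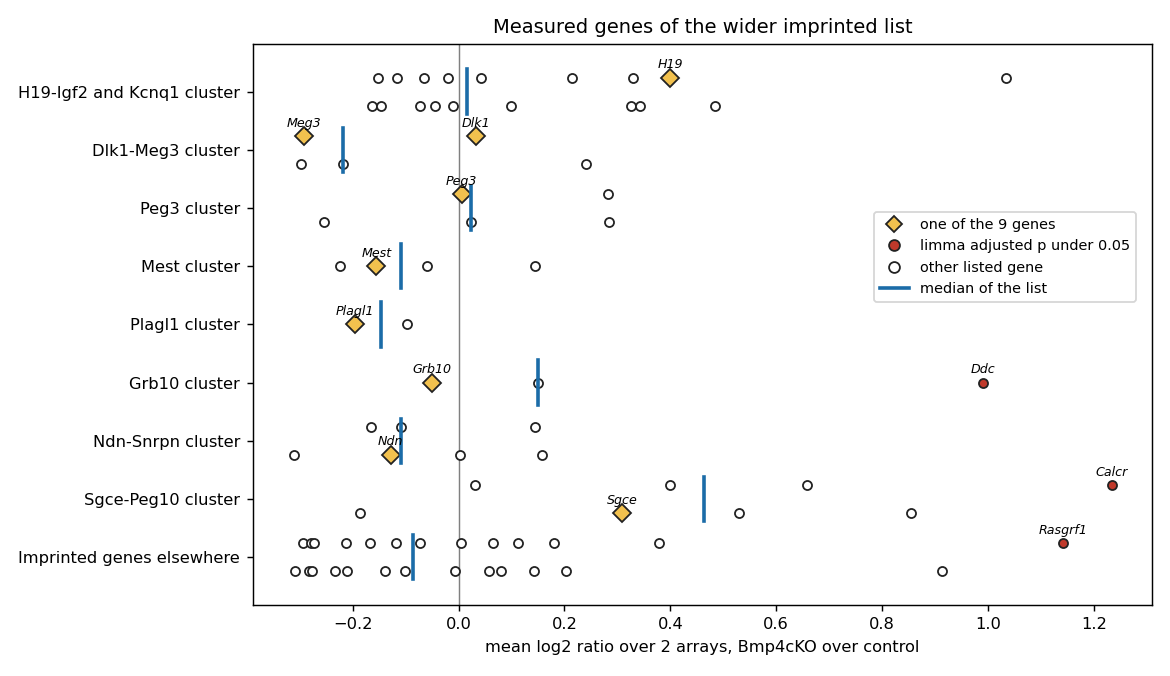
Mean log2 ratio of Bmp4cKO over control (x axis) for the measured genes of each imprinted cluster, with the 9 genes as diamonds, genes past limma's threshold filled in red and the median of each list as a vertical bar. The median of the Sgce cluster lies at 0.46, and at -0.46 if the labels are exchanged. The 3 genes past the threshold, Calcr, Rasgrf1 and Ddc, lie near or above 1.

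Grb10 acts on insulin-like growth factor signalling, and 20 genes of that axis were measured, of which limma called 1 higher and 2 lower, beside 0.887% and 1.02% of all genes. Igf1, a growth factor ligand, had normalised intensities of 14234 and 15781 in Bmp4cKO and 7726 and 6632 in control. It was 2.09-fold higher in the channel labelled Bmp4cKO, with the sign of the Bmp4 probe (log2 1.07 ± 0.26, SD, n = 2, limma adjusted p = 0.041). Its 5 passing probes had means between 0.25 and 1.08. Igfbp6, a binding protein that prefers Igf2 as its ligand, had 4140 and 5864 in Bmp4cKO and 13390 and 14450 in control. The channel labelled Bmp4cKO stood at 0.354-fold of control, the sign opposite to the Bmp4 probe (limma adjusted p = 0.024). Igfbp2, another binding protein of these ligands, had 18792 and 16474 in Bmp4cKO and 37184 and 44964 in control. It stood at 0.430-fold of control, also the sign opposite to the Bmp4 probe (limma adjusted p = 0.038). The groups did not overlap for these 3 genes, which were picked by their calls, so this adds nothing to the calls. The share of all genes without overlap was not computed. With median centring in place of loess, or with no normalization within arrays, Calcr, Ddc, Rasgrf1, Igf1, Igfbp2 and Igfbp6 kept their direction and none of them was called. The call of Igf1 was also lost with the mean of its probes, and those of Igf1 and Rasgrf1 with the dimmest probe. The median of the 20 genes was -0.14, and Grb10 is the 1 gene they share with the 9.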

How the data were processed

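Spots were quantified with Agilent Feature Extraction 10.7.3.1, per the file headers. The deposited mean and background signals are linear intensities, from which the software derived processed signals (detrended, dye-normalized) and the log10 of their red over green ratio, per the file headers. The authors' deposited value table holds a score per probe that proved to be a signed fold. There, 100% of the probes whose processed log2 ratio exceeded 0.1 in size on both arrays had the sign opposite to that ratio turned to Bmp4cKO over control.

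In limma 3.58.1 under R 4.3.3, intensities were background-corrected (normexp, offset 50), red over green was normalized within arrays (loess, span 0.3) and turned to Bmp4cKO over control. The intensities printed were also normalised between arrays, by quantiles of the mean log2 intensity (Aquantile), which leaves the log ratios of the spots unchanged. Comparisons of intensities across the 2 arrays rest on that step. Outlier spots (231 and 235) were left out, and 0 probe spots were saturated. Genes, named through a RefSeq table of assembly GRCm38.p6 where it matched (31001 of 39429 probes), were kept if well above background in both channels of a genotype, and stand by their brightest probe. Both arrays entered 1 limma fit (lmFit, eBayes, with 1 residual and 4.03 prior degrees of freedom), with p-values adjusted by Benjamini-Hochberg over 21981 genes. The fit was tested on simulated data. The sequence and position of 1 Meg3 probe are not reported here. Having 2 arrays limits the precision. The genes, lists and tests were chosen with earlier results of these data known. Besides the 9 genes, Bmp4 and Tbx18, the genes named are those of each list past the threshold and the 2 of each list with the largest mean of 1 sign on both arrays. Igf2 and Cdkn1c were named after their values were seen.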

Additional observations from a re-analysis of the deposited data

Results flagged for a closer look

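For 6 of the 9 genes the 2 arrays gave opposite signs, and these genes are listed with the difference of their log2 ratios, replicate 2 minus replicate 1. The difference was 1.81 for H19, 1.11 for Plagl1, 0.55 for Dlk1, 0.50 for Mest, 0.41 for Grb10 and 0.18 for Peg3. With 1 array on each side the differences between arrays were not tested as such. Replicate also stands for dye orientation and labelled sex here, which cannot be told apart from it. The mean red over green ratio of a gene carries the same information, at 0.91 for H19 and 0.56 for Plagl1. In limma's fit of that ratio, the number of genes past an adjusted p of 0.05 was 0. Before adjustment 483 of the 21981 genes lay under 0.05, with H19 and Plagl1, 2 of the 9, among them. Both lie in intensity classes whose median was above 0 in red over green on both arrays.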

How the results depend on the processing

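None of the 9 genes was called under any of the 12 tested alternatives, and Meg3, Mest, Plagl1, Grb10, Ndn and Sgce kept their direction in all of them, with the sign of the deposited value table set aside. Sgce ranged between 0.30 and 0.34, with adjusted p-values between 0.25 and 1. With the sign of the authors' table every value turns, to -0.40 for H19, -0.032 for Dlk1, 0.29 for Meg3, -0.0061 for Peg3, 0.16 for Mest, 0.20 for Plagl1, 0.050 for Grb10, 0.13 for Ndn and -0.31 for Sgce. The 6 called genes of the wider lists then stand at -1.23 (Calcr), -0.99 (Ddc), -1.14 (Rasgrf1), -1.07 (Igf1), 1.22 (Igfbp2) and 1.497 (Igfbp6). With the mean of a gene's probes, Dlk1 was at -0.025 and Peg3 at -0.078, and only H19 and Sgce of the 9 were above 0. With the dimmest probe, an alternative chosen after seeing the data, H19 was at -0.041, Dlk1 at -0.081 and Peg3 at -0.16. Sgce alone of the 9 genes then had a mean above 0. Over all genes, 195 higher and 225 lower calls became 339 and 388 with plain background subtraction, 371 and 422 with the narrower loess span, and 611 and 671 with a trended prior. They became 0 and 0 in limma with median centring (1760 genes with an unadjusted p under 0.05) and 0 and 1 without normalization within arrays (108 genes), so that the calls of these 6 genes are lost under both. Calcr has no value where all 4 channels must be well above background. Without the replicate block, with the channels as unpaired samples, they were 155 and 171, and no call among the 9 genes differed. Each array alone gives a value with no test, and the median of the 9 genes was -0.25 without replicate 2 and 0.15 without replicate 1. The median of the wider list was 0.038 without replicate 2, -0.0074 without replicate 1 and 0.055 with median centring. The causes were not tested.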
